A study of Mus musculus with 2 samples.

Results

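Mir126a and Mir126b are 2 microRNA (miRNA) genes that lie on opposite strands of 1 locus, inside Egfl7, and they were followed here in the mouse adrenal gland. The rule that picks them uses position alone, as the overlapping pair at that locus. They are 2 of the 2202 miRNA genes in the deposited tables. The samples are 1 group of 2 libraries from the adrenal gland of adult male mice, 8 to 10 months old, of a strain given as 5xFAD/CAST, which joins the names of a transgenic Alzheimer's disease model and of a wild-derived inbred strain. No treatment, agent or other allele is named, and the labels do not say whether these animals carried the transgenes. The libraries are labelled biological replicates 1 and 2 with different sample records but the same donor record. The spread between them may therefore be partly technical.

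A miRNA gene is transcribed as part of a longer RNA, from which a hairpin is cut out and then trimmed to short mature strands, the 5p and 3p arms. A mature miRNA guides silencing proteins to messenger RNAs that pair with its seed, the bases from position 2 to 8. Mir126a is the mouse counterpart of human MIR126, long known as the leading miRNA of endothelial cells. Its host gene Egfl7 encodes a protein secreted by endothelium, and the mature miRNA is known to repress Spred1 and Pik3r2, which restrain signalling by vascular endothelial growth factor. Mir126b is annotated on the other strand, and its function is less well established. The adrenal cortex is crossed by dense sinusoidal capillaries, so endothelium is a regular part of the gland.

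The sequences of the locus are shown first, because the layout of the hairpins decides which column of the tables can be read. All 5 are from RefSeq (GRCm38.p6), where both hairpins matched the GENCODE M21 genes base for base. In the Mir126a hairpin, capitals mark the bases that also belong to the Mir126b hairpin on the other strand, and in the Mir126b hairpin they mark its mature arms. In the 3 mature sequences capitals mark the seed. The table held no entry for miR-126a-5p.
Mir126a hairpin: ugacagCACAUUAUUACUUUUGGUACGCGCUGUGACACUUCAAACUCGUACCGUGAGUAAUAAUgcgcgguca
Mir126b hairpin: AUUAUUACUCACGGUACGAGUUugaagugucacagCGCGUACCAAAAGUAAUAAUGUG
miR-126a-3p: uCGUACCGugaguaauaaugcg
miR-126b-5p: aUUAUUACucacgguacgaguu
miR-126b-3p: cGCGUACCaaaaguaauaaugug

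Mir126a (ENSMUSG00000065540.1) spans 73 bases of the plus strand at chr2:26591357-26591429 (GRCm38, mm10). Mir126b (ENSMUSG00000105799.1) spans 58 bases of the minus strand at chr2:26591363-26591420 and lies wholly within it. The Mir126a hairpin extends 6 bases before and 9 bases after the Mir126b hairpin. Egfl7 (chr2:26580014-26593120, plus strand) is on the strand of Mir126a. Of its 9 annotated transcripts over the hairpin, 7 code for protein, and in all 7 the hairpin lies in an intron. It overlaps an exon in 1 transcript, annotated as a retained intron. The gene model Gm20532 also overlaps the Mir126a hairpin.

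**Figure D1:**
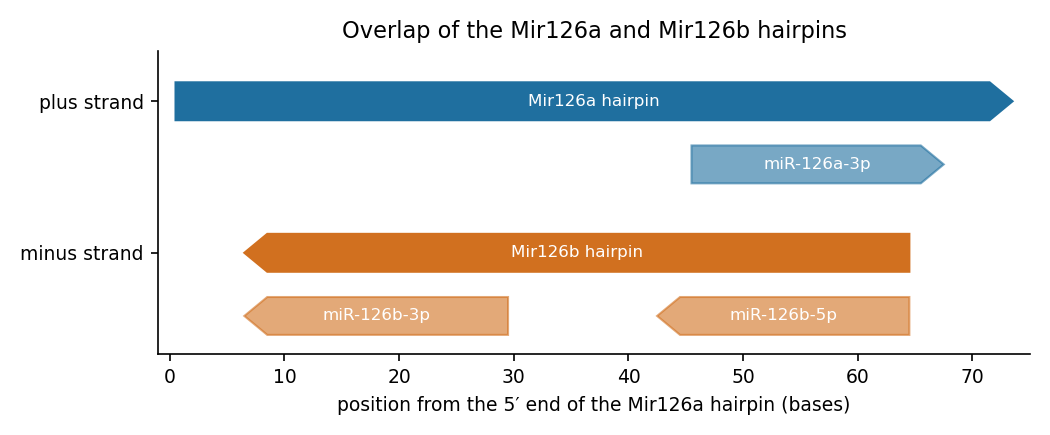
Map of the locus, with the position in bases from the 5′ end of the Mir126a hairpin on the horizontal axis and the strand on the vertical axis. Arrows point 5′ to 3′ and show that the Mir126b hairpin of 58 bases lies within the 73 bases of Mir126a, with miR-126a-3p facing miR-126b-5p.

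The miR-126a-3p arm and the miR-126b-5p arm shared 19 genomic positions, at which they are complementary without a mismatch. Read 5′ to 3′ on their own strands, the members are also alike, since the stem of a hairpin pairs with itself. Aligned without gaps, miR-126a-3p and miR-126b-3p matched at 17 of 22 bases, with a common run of 10 bases. The 58 bases of the Mir126b hairpin matched the Mir126a hairpin at 38 positions (65.5%). The seeds of the 3 mature sequences differed from each other, and none was shared with another of the 1679 mature miRNAs in the table. By computed folding the Mir126a hairpin had a minimum free energy of -31.2 kcal/mol with 27 base pairs, and Mir126b had -19.3 kcal/mol with 21. Neither member shared 20 bases, read on its own strand, with another annotated hairpin. Copies outside annotated hairpins were not examined here.

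In replicate 1, 6783227 of 13209343 reads lay on the strand of a miRNA gene, and in replicate 2, 3084602 of 6482170. They are called sense reads here. Levels are given as CPM, the sense reads of a gene per 1000000 sense reads of all miRNA genes of the library. Where no read was counted, up to 3 reads remain possible, equal to 0.442 CPM for the first library and 0.973 CPM for the second. This floor is a one-sided limit and lies below the upper end of a two-sided interval for a count of 0. Intervals and floor cover counting error only.

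Mir126a had 628198 sense reads in replicate 1 and 162001 in replicate 2. Mir126b had 4 sense reads in replicate 1 and 0 in replicate 2. Almost every read of the locus thus lay on the strand of Mir126a, and the members did not overlap in either library. The reads counted on the opposite strand of Mir126b, 628194 and 161999, are the reads of Mir126a counted a second time. In the same way, the 4 and 0 opposite-strand reads of Mir126a are those of Mir126b.

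The deposited column for both strands together showed almost none of these reads. It gave Mir126a 4 reads in replicate 1 and 2 in replicate 2, and Mir126b 0 in both. These are the numbers of Mir126a reads that did not touch the Mir126b hairpin, also 4 and 2, which places them at the ends of the Mir126a hairpin. The both-strand column thus kept 0.000637% (Wilson 95% interval 0.000248 to 0.00164) and 0.00123% (0.000339 to 0.00450) of the sense reads of Mir126a. The remaining reads stand in that column's line for ambiguous reads, which held 873915 and 274367 reads. Mir126a alone made up 71.9% of that line in replicate 1 and 59.0% in replicate 2. By the both-strand column Mir126a ranked 424th and 421st of the 2202 genes, against the second and the sixth by sense reads. The sense total of a library was 1.15 times the both-strand total in replicate 1 and 1.10 times in replicate 2, so CPM of genes without a partner are higher by these factors in the both-strand column.

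**Figure D2:**
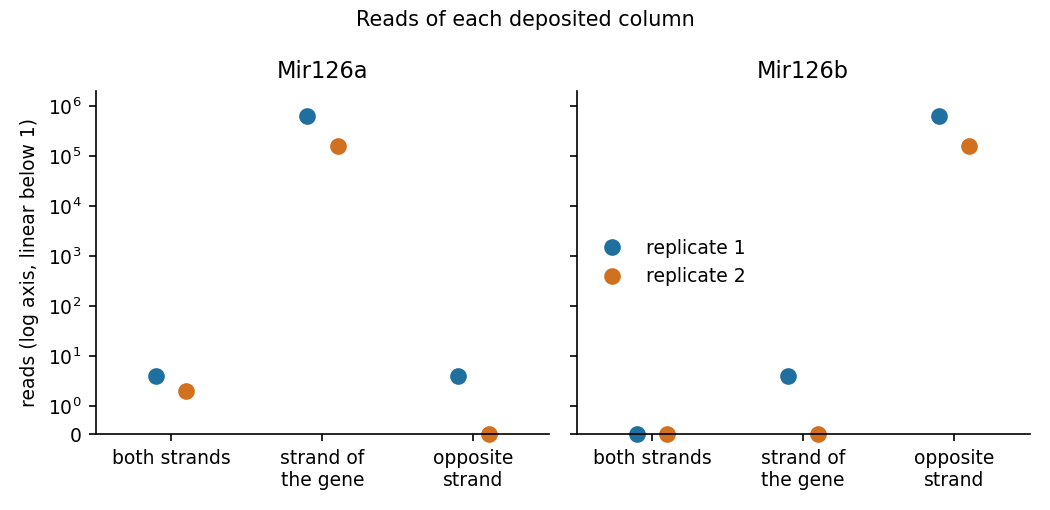
Reads of Mir126a (left) and Mir126b (right) in the 3 deposited columns, on a log axis that is linear below 1, with 1 point per replicate. Mir126a reached 628198 and 162001 reads on its own strand and 4 and 2 in the column for both strands, and the same reads reappear as opposite-strand reads of Mir126b.

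This loss was shared by other miRNA genes with a partner on the opposite strand. The annotation holds 32 such pairs, made of 64 genes, and in 18 of them the more abundant gene had a mean of at least 100 CPM. The both-strand column kept 0 reads of the more abundant gene in both replicates in 15 of these 18 pairs. The exceptions were Mir126a, Mir337 and Mir129-2, of which no more than 0.0812% was kept in either library. After Mir126a, the most abundant genes concerned were Mirlet7e with partner Gm25927, Mir191 with Gm24083, Mir30e with Mir30f, Mir451a with Mir451b and Mir378a with Gm25301. Mirlet7e, of the let-7 family, had 74163 and 41319 sense reads, and Mir191 had 49641 and 23510. Mir126a was the deepest of the 18 in both replicates.

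In most of the 18 pairs the less abundant strand was at 0. The partner had 0 sense reads in both replicates in 12 pairs, a read in 1 replicate only in 5, among them Mir126b, and reads in both replicates in 1. That pair was Mir337 and Mir3544, of the imprinted Dlk1-Dio3 region. Mir3544 had 97 sense reads beside 13923 of Mir337 in replicate 1, and 46 beside 4925 in replicate 2. Per 100000 reads of the more abundant gene, this is 697 (exact Poisson 95% interval 565 to 850) and 934 (684 to 1246) for Mir3544. For Mir126b it was 0.637 (0.173 to 1.63) in replicate 1, and 0 (0 to 2.28) in replicate 2. The intervals of Mir3544 and Mir126b did not overlap in either replicate. Where a partner was at 0, the upper end of its interval depended on depth. It was 4.97 and 8.93 in replicates 1 and 2 beside Mirlet7e, and 485 and 1028 beside Mir374b. In replicate 2, a rate like that of Mir3544 is therefore not excluded beside Mir374b. Mir299b, with 4 and 0 reads, had the same counts as Mir126b, but beside only 3532 and 2340 reads of Mir299a. Among the pairs of lower level, outside the 18, some partners also had reads in both replicates. Mir3074-1 had 51 and 19 sense reads beside 312 and 112 of Mir24-1. Mir3107 had 4 and 6 beside 96 and 39 of Mir486. The genes of both pairs share 20 bases with another hairpin, so these counts are lower limits.

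The Mir126b share of the reads of its locus was 0.000637% (Wilson 95% interval 0.000248 to 0.00164) in replicate 1. In replicate 2 it was 0 of 162001 (Wilson 95% interval 0 to 0.00237%). The shares of the 2 libraries were not distinguishable at this depth (Fisher's exact test on reads, two-sided, p = 0.588), a test that compares libraries and not animals.

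Reads on the unexpected strand also occurred where no partner is annotated, which gives a level to read Mir126b against. The 2138 genes without a partner had 95 opposite-strand reads in replicate 1 and 36 in replicate 2. This is 1.61 (exact Poisson 95% interval 1.30 to 1.97) and 1.28 (0.897 to 1.77) per 100000 sense reads. At that rate, the reads of Mir126a would be accompanied by 10.1 and 2.08 opposite-strand reads, and 4 and 0 were counted. The rate depended on which genes were used, since it was 0.318 and 0.186 per 100000 over the 62 genes of at least 1000 CPM. Both rates lie within the interval of Mir126b in each replicate. Of the 18 genes of at least 10000 CPM without a partner, 16 had 0 opposite-strand reads in both libraries, among them Mirlet7g with 847853 and 341621 sense reads. The other 2 were Mirlet7b, with 8 and 3, and Mir322, with 2 and 0. The reads of Mir126b were therefore not distinguishable, at this depth, from opposite-strand reads of genes that have no partner.

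**Figure D3:**
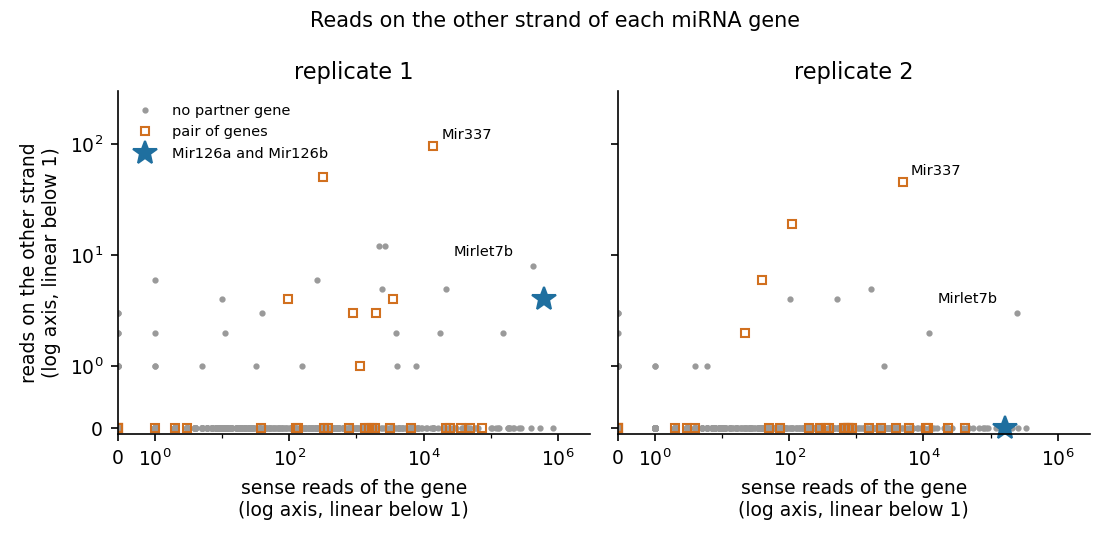
Reads on the other strand of each miRNA gene against its sense reads, for replicate 1 (left) and replicate 2 (right), on log axes that are linear below 1. Grey points are genes without a partner, squares are the other pairs with the more abundant gene on the horizontal axis, and the star for Mir126a and Mir126b sits at 4 and 0 reads, far below the 97 and 46 reads of the Mir337 pair.

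Mir126a was among the most abundant miRNA genes of the gland. Its level was 92610 CPM in replicate 1 and 52519 CPM in replicate 2, a mean of 72565 ± 28349 CPM (SD, n = 2). It took 9.26% (Wilson 95% interval 9.24 to 9.28) and 5.25% (5.23 to 5.28) of the sense reads, so counting error was small beside the gap between the replicates. Mir126b stood at 0.590 CPM (exact Poisson 95% interval 0.161 to 1.51) in replicate 1 and at 0 CPM (0 to 1.20) in replicate 2.

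The place of Mir126a in the order of levels was not fixed by these libraries. It ranked second in replicate 1 and sixth in replicate 2, and the third by mean. Only Mirlet7g and Mir10a, from the Hoxb region, had a higher mean, and the next below were Mirlet7b, Mir375, Mir23a, Mirlet7i and Mir23b. A gene was ordered against Mir126a only when both replicates agreed and each gap was wider than the replicate difference of Mir126a and of that gene. By this rule Mir126a lay above 260 of the 279 other genes of at least 10 CPM, and no gene lay above it. The other 19, all the remaining members of the top 20, could not be ordered against it. They ran from Mirlet7g at 117872 ± 10071 CPM (SD, n = 2) to Mirlet7e at 12164 ± 1741 CPM. That no gene lay above Mir126a says little, because its own replicate difference was wide. Even Mirlet7g, at 124993 and 110750 CPM, did not clear it in replicate 1. Mir10a, which had 80981 and 66529 CPM, was below Mir126a in replicate 1 and above it in replicate 2. Mir23a and Mir23b share 20 bases with each other, so reads common to both were assigned to neither and their read counts are lower limits. Their CPM is no strict limit, since reads assigned to no gene are missing from the total too. All ranks and levels here cover only reads assigned to a gene. Reads that mapped to several places, 30.3% and 32.1% of all reads, are left out. Other genes that share bases with another hairpin may therefore rank too low.

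**Figure D4:**
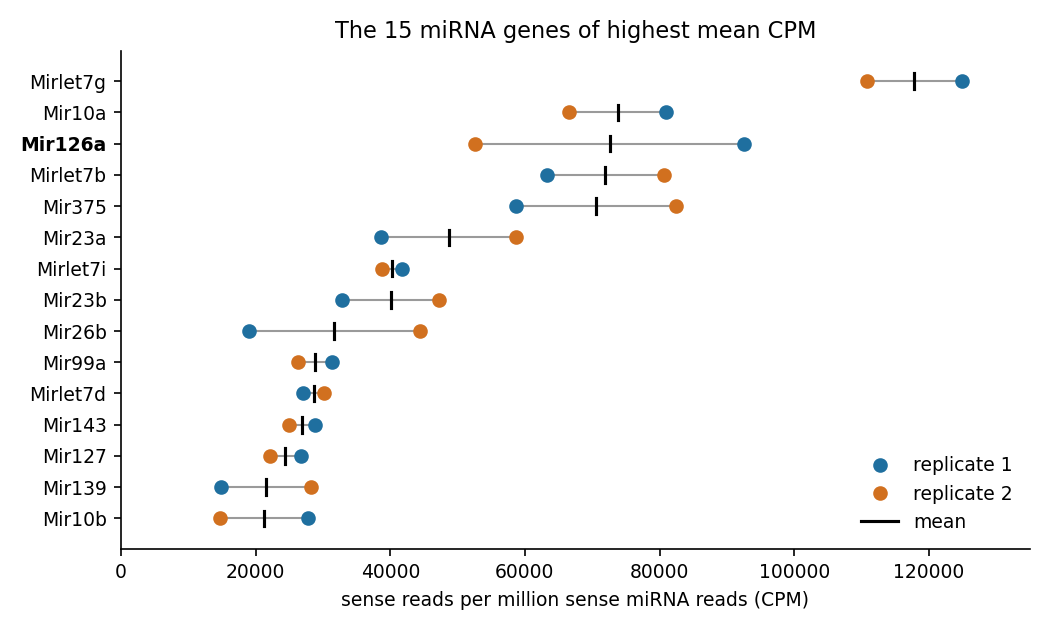
Sense CPM of the 15 miRNA genes of highest mean, with 1 point per replicate, a line joining the replicates and a bar at the mean. Mir126a, at 92610 and 52519 CPM, has the widest gap of the 15 in CPM, though not in fold, and overlaps the range of its neighbours Mir10a, Mirlet7b and Mir375.

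Mir126a was lower in replicate 2 than in replicate 1 by a log2 difference of -0.82, on the log2(CPM + 1) scale, or 1.76-fold. A replicate difference was called where Fisher's exact test on reads gave a Benjamini-Hochberg adjusted p under 0.05, over the 280 genes of at least 10 CPM, and the log2 difference was at least 1. Mir126a had a p too small for the software to represent, but fell short of the size limit. Of the members, 1 was deep enough to test and 0 were called, beside 30 of 280 genes (10.7%), of which 13 (4.64% of the 280) were lower in replicate 2. Only 45 of the 280 genes had a larger absolute difference than Mir126a, and 7 of the 70 genes of at least 1000 CPM. The median over the 280 genes was 0.012. This compares 2 libraries and not conditions, and in whole tissue fewer cells of a type and less RNA per cell cannot be told apart.

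The size of the difference moved with the scaling. With TMM factors it was -0.92 and with DESeq2 size factors -0.96, while the median of all tested genes became -0.089 and -0.12. The distance of Mir126a from that median, -0.83, is fixed by how a scaling factor works and is no check of it. Called genes split into 17 higher and 13 lower in replicate 2 as scaled here, 12 and 17 with TMM, and 8 and 17 with DESeq2 size factors. The DESeq2 size factors, 1.414 and 0.707, were computed with no minimum level. Genes of a few reads thus weighed on them as much as deep ones, which limits the values scaled by them. Because Mir126a was so abundant, it also moved the scale of every other gene. Without it the CPM of other genes would be 1.10 times as high in replicate 1 and 1.06 times in replicate 2.

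By the replicate difference with its sign, the 5 genes of at least 1000 CPM nearest to Mir126a were Mir335, Mir10b, Mir382, Mir146 and Mir98. Mir335, which lies in Mest, went from 2618 to 1580 CPM (-0.73). Mir10b, in the Hoxd region, went from 27799 to 14638 CPM (-0.93). Mir382, of the Dlk1-Dio3 region, went from 7312 to 4681 CPM (-0.64). Mir146 (-0.63) and Mir98 (-0.60) were next, and Mir146 shares 20 bases with another hairpin. None of the 5 was called. With 2 libraries, this likeness rests on 1 difference per gene.

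The other 5 tested genes of the endothelial list differed less between the replicates than Mir126a, though no test of that gap can be made with 2 libraries. The endothelial list holds 7 genes, both members included, and 6 could be tested. Of these, 0 were called, 3 were higher and 3 lower in replicate 2, and the median difference was 0.024. Mir100 had 3512 and 3212 CPM (-0.13), and Mir99b had 8663 and 7512 CPM (-0.21). Mirlet7e and Mir125a, from the same chromosomal cluster as Mir99b, had differences of 0.29 and 0.32. Mir92-1, of the Mir17 cluster, had 409 and 462 CPM (0.18), and shares 20 bases with another hairpin. The summed level of the list was 121829 CPM in replicate 1 and 84235 CPM in replicate 2. Without Mir126a it was 29218 and 31715 CPM, so Mir126a made up 76.0% and 62.3% of the list.

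The ratio of Mir126a to another gene does not depend on the scaling of a library. Mir126a stood 26.4-fold above Mir100 in replicate 1 and 16.4-fold in replicate 2. Its ratio to Mir99b was 10.7 and 6.99, and to Mir125a 16.2 and 7.36. All of these ratios were smaller in replicate 2, which follows from the differences already given and is no further support.

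The list of angiogenesis and vascular genes held 24 genes, of which 21 were tested, 0 were called, 11 were higher and 10 lower in replicate 2. Its median difference was 0.00028, beside 0.012 for all tested genes. Of the 28 genes of both lists other than the members, Mir126a was ordered above 22, and 6 could not be ordered against it. Mir10a (-0.28), Mir23a (0.60), Mir23b (0.52) and Mir10b (-0.93) led the angiogenesis and vascular list. Among its other genes higher in replicate 2 were Mir24-2 (0.54), Mir296 (0.41), Mir27a (0.29) and Mir130a (0.29). Mir221, which restrains endothelial growth through Kit, had 719 and 429 CPM (-0.74), while its cluster mate Mir222 had 73.1 and 83.6 CPM (0.19). Mir210, the hypoxia miRNA, had 240 and 182 CPM (-0.40), and Mir132 had 547 and 514 CPM (-0.091). Only 1 of the 25 tested genes of both lists, Mir10b, was lower in replicate 2 by more than Mir126a. Of the 28 genes, 10 share 20 bases with another hairpin, which makes their read counts lower limits.

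**Figure D5:**
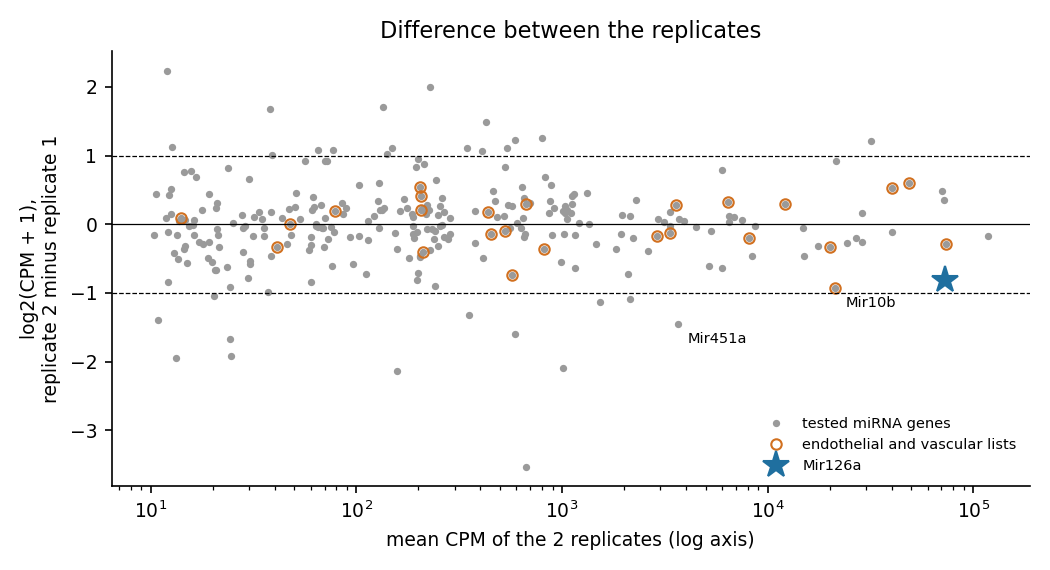
Difference of log2(CPM + 1) between replicate 2 and replicate 1 against mean CPM (log axis) for the 280 tested genes, with dashed lines at the size limit of 1 in either direction. Mir126a sits at -0.82, and the other genes of the endothelial and vascular lists (circles) spread on both sides of 0, with Mir10b the lowest at -0.93.

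Markers of other cells moved in different directions between the replicates, and their part in the difference of Mir126a was not tested. The erythroid list summed to 5556 and 2149 CPM and all 3 of its genes were lower in replicate 2, with Mir451a at 5351 and 1949 CPM (-1.46, called). Mir144, from the same transcript, was at 191 and 187 CPM (-0.028), and Mir486 at 14.2 and 12.6 CPM. The leukocyte and platelet list summed to 610 and 693 CPM, and of its 4 genes 3 were higher and 1 lower in replicate 2. Mir223, found in myeloid cells and platelets, was at 38.3 and 73.6 CPM. The smooth muscle and pericyte list summed to 29493 and 25630 CPM, with Mir143 at 28851 and 25009 CPM (-0.21). Of its 4 genes, Mir133a-1 and Mir133a-2 were at 0 in both libraries. Both share 20 bases with another hairpin, and reads common to 2 hairpins were assigned to neither, so these counts of 0 do not show absence. The neuroendocrine list, led by Mir375, summed to 63615 and 87243 CPM, and of its 4 genes 2 were higher and 2 lower in replicate 2. Mir375 was at 58717 and 82443 CPM, while Mir7b was at 4535 and 4423 CPM and Mir7-1 at 250.0 and 233 CPM. The liver marker Mir122 was at 257 and 57.7 CPM (-2.14, called). The epithelial list summed to 432 and 577 CPM, mostly from Mir203 at 386 and 542 CPM. Of its 2 tested genes, 1 was higher and 1 lower in replicate 2, the latter Mir200c at 23.7 and 15.9 CPM. Its other genes were too low to test. Among them Mir429 was at 9.58 and 3.24 CPM, Mir200b at 5.31 and 8.43 CPM and Mir141 at 5.45 and 5.51 CPM. Mir200a was at 1.62 and 1.95 CPM, and Mir205 had 1 read in each library. The kidney list summed to 330 and 305 CPM, and of its 5 tested genes 1 was higher and 4 lower in replicate 2. The neuronal list summed to 713 and 1058 CPM, almost all from Mir137 at 713 and 1057 CPM, with 5 of its 7 genes at 0 in both libraries. Those 5, of the mir-9 and mir-124 families, share 20 bases with another hairpin. Reads common to several hairpins were assigned to none, so these counts of 0 do not show absence and the sum may miss reads. The adipose gene Mir378a was at 3142 and 3542 CPM. Mir378a, Mir7-1, Mir486 and 4 of the 6 kidney genes also share 20 bases with another hairpin, so their read counts are lower limits. The tables hold miRNA genes only, so the cells that the reads of Mir126a came from were not measured.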

How the data were processed

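The authors deposited, for each of 2 libraries of RNA below 30 nucleotides, read counts per miRNA gene in 3 columns, after 4 lines for reads left unmapped, mapped to several places, outside genes or ambiguous. Assembly mm10 and annotation GENCODE M21 are named in the text deposited beside each table. The aligner, the counter and the trimming were not given in the sources used here. Columns carry no header, and were taken as both strands, sense and opposite from this layout and their totals. Counts are of hairpin genes, not arms, and reads of CAST alleles that differ from the reference could be lost.

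All 2202 identifiers were matched to GENCODE M21. The mapping lines, 48.6% and 52.4% of reads in replicates 1 and 2, were left out of totals. CPM, ranks, intervals and Fisher's exact test were computed with Python 3.11.15 and scipy 1.17.1, TMM factors with edgeR 4.0.16, size factors with DESeq2 1.42.0 and folding with RNAfold 2.7.2. The pseudocount was 1. The test was checked on simulated counts that vary by counting error only, so the check does not cover the spread between real libraries. A hairpin was called near-identical where it shared 20 bases with another. Motifs were not searched.

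The members, lists and the rule for named genes were chosen with earlier results of these data known. The rule takes the members, their 5 neighbours by mean CPM on either side, opposite-strand pairs of at least 100 CPM, the 5 genes of nearest replicate difference and up to 4 genes per list. Further genes were named after their values were seen.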

Additional observations from a re-analysis of the deposited data

Results flagged for a closer look

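Reads outside the gene counts were present in both libraries. Multimapping reads, which the tables assign to no gene, numbered 4001595 in replicate 1 and 2084009 in replicate 2, or 30.3% and 32.1% of all reads. Neither Mir126a nor Mir126b shares 20 bases with another annotated hairpin, and how many of these reads came from the locus was not tested. A group of 2 libraries is too small to test for a library that stands apart.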

How the results depend on the processing

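The both-strand column was the alternative that changed the values of Mir126a most, with a mean of 0.694 CPM in place of 72565 CPM and a replicate difference of 0.030, opposite in sign to the -0.82 of the sense column and resting on 4 and 2 reads. Scaled to all reads of the tables, the mean was 36274 CPM. Leaving out each replicate gave 52519 to 92610 CPM. Over genes of at least 1000 CPM, the mean rate of opposite-strand reads was 0.252 per 100000, against 1.44 over all genes without a partner. The number of called replicate differences was 19 among genes of at least 100 CPM and 50 with no filter beyond 1 read, against 30, where fewer and more genes were tested. Between 25 and 31 were called under the other 5 alternatives. Mir126a was not called under any of the 7 alternatives run on its replicate difference, and could not be tested under the both-strand column. No replicate difference is given for Mir126b, whose 4 and 0 reads are near the floor of 3. No paired analysis was possible because there is 1 group. Of the 2 members, depth limits the reading of Mir126b only, since its 0 reads in replicate 2 allow up to 0.973 CPM. Depth also limits the counts of 0 of partners in the shallower pairs.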

Other observations

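Some miRNA genes without an annotated partner had opposite-strand reads in both libraries, and those with at least 5 such reads in all are given as values. Mir203 had 12 and 5 beside 2616 and 1672 sense reads, and Mir708 had 12 and 4 beside 2142 and 521. Mir34b, of the p53-responsive mir-34 family, had 6 and 4 beside 256 and 103, or 2344 and 3883 per 100000. Mir130a had 5 and 2 beside 21903 and 12153, and Mir214 had 5 and 1 beside 2410 and 2563. Mir8105 had 6 and 2 beside 1 and 0 sense reads, and Mir7654 had 3 and 3 beside 0 in both. Mirlet7b, at 8 and 3, is described above.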
